A study of Caenorhabditis elegans with 4 samples.

Results

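The aged adult comparison set gonad RNA of cde-1 mutant worms (allele tm1021) directly beside gonad RNA of wildtype worms (N2, the standard laboratory strain of Caenorhabditis elegans) on microarrays of 2 colours. It comprised 2 of the 4 arrays of the series, chosen by their stage label, and carried a dye swap: the mutant cDNA was labelled with Cy5 on one array and with Cy3 on the other. Both groups were aged adults, dissected gonads were the tissue in both, and 250 gonads were collected for a sample. The labels give neither the age in days nor the way the worms were aged. The other 2 arrays of the series made the same comparison in young adults. The mutant was represented by 1 allele and by 1 RNA sample, as was the wildtype, so the aged arrays measured the same cDNAs and counted as 1 replicate. No p-value can be had from them, and a pair of values below shows the technical spread between orientations, not the spread between worms.

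CDE-1 is a terminal uridylyltransferase, an enzyme that adds uridines to the ends of small RNAs. In the germline it acts on small interfering RNAs bound by the Argonaute protein CSR-1, which are antisense to many germline messengers and are known for their part in chromosome segregation. Neighbouring small RNA pathways of the same tissue, among them the piRNA pathway, silence transposons and other targets. A gonad sample holds germ cells together with the somatic sheath around them, so fewer cells of a type and less RNA per cell cannot be told apart.

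The deposited value of each probe was taken as a log10 ratio of the 2 channels and is given here as a log2 ratio, so that 1 unit is a 2-fold ratio. Ratios were present for 12418 probes with the mutant in Cy5 and for 12704 with the mutant in Cy3, of 22562 on the array. An exact 0, which made up 44.96% and 43.7% of the values, was taken as a spot with no ratio. Of 7477 genes with a named probe, 2965 had a ratio on both aged arrays, 1632 on one of them and 2880 on neither. Those 2965 genes are described here, whether or not the young adult arrays measured them; 2222 had a ratio on both young arrays as well. Neither cde-1 nor any of 51 marker genes fixed for germline, sperm, somatic gonad, intestine, muscle, hypodermis, neurons and pharynx had a named probe, so neither the genotype nor the tissue could be checked against its defining genes.

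The direction of the deposited ratios is not stated. They are read as mutant over wildtype, an assumption that is unsettled. Both orientations correlated positively as deposited. Every ratio of the array with the mutant in Cy5 was written in scientific notation (12418 of 12418), against 0 of 12704 on the other. The files had thus been handled differently. Neither observation tells mutant over wildtype from wildtype over mutant, and a dye effect shared by unturned arrays would also give a positive correlation. A turned sign would make each gene called higher a lower one. The averages would instead hold dye effects were both arrays deposited as the scanner program wrote them. The array with the mutant in Cy5 also stood apart in its spread, with an SD of 1.3996 log2 units against 0.86 on the other aged array and 0.92 and 0.97 on the young ones. Aged and young arrays of one dye orientation correlated at -0.065 with the mutant in Cy5 and at -0.12 with it in Cy3 (Pearson, across probes), while the mutant-in-Cy5 aged array and the young one of the other orientation gave -0.31.

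Beyond 1 log2 unit on both aged arrays, 200 of the 2965 genes were higher in the mutant (6.75%) and 76 were lower (2.56%). The leading high gene was C38D9.2 and the leading low gene cror-1. The higher genes had a median log2 ratio of 1.73 and the lower ones of -1.55, as the mean of both orientations. Past 2 units on both arrays lay 22 genes on the high side (0.742%) and 7 on the low side (0.236%), and past 3 units 3 and 1. The balance leaned to the high side at each of these limits. After each array was centred on its own median, 181 genes were higher (6.1%), all of them among the 200, and 90 were lower (3.04%), 76 of them called before. Over all 10309 probes with a ratio on both aged arrays, unnamed ones included, 716 were higher (6.95%) and 247 lower (2.4%). A single array gave far more: 818 higher and 397 lower with the mutant in Cy5 alone, and 346 and 263 with the mutant in Cy3 alone.

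**Figure D1:**
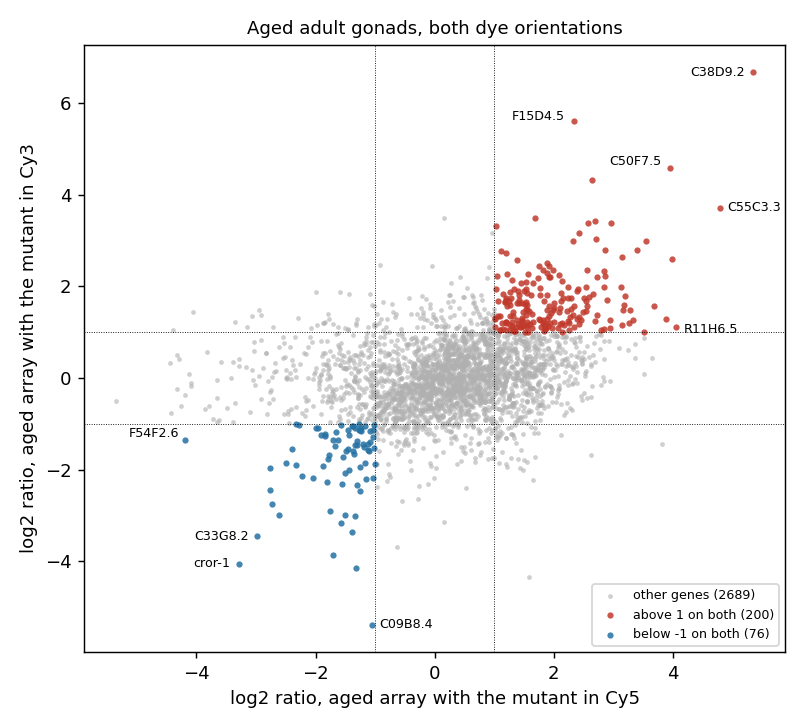
Log2 ratio of each of the 2965 genes in aged adults, with the mutant in Cy5 (horizontal axis) and in Cy3 (vertical axis). Dotted lines mark 1 and -1; the 200 genes above 1 on both arrays are red and the 76 below -1 on both are blue, and a band of low values runs to the left that the vertical axis does not share.

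Across the 2965 genes the orientations correlated at 0.33 (Pearson) and 0.32 (Spearman), a description of arrays that share their cDNAs. The same sign on both arrays was found for 1829 genes, 1114 positive and 715 negative, and 76 genes lay beyond 1 unit in opposite directions. The median absolute difference between orientations was 0.74 log2 units over all genes and 0.495 among the 276 called. The mutant-in-Cy5 array carried a one-sided tail. Of 114 genes below -2 on it, 14 were below -1 on the other orientation and 59 were negative there, with a median of -0.014. Above 2 on that array the picture was different, since 168 of 200 genes were positive on the other orientation and 80 were above 1. With the mutant in Cy3, 39 genes lay below -2, and 23 of them were below -1 on the array with it in Cy5.

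Genes with repeated probes show the spread between probes within an array. Probe sequences were not used, so whether such probes are alike is not known here. For 9 genes carrying 10 probes each, all with ratios, the pooled SD between probes was 0.59 with the mutant in Cy5 and 0.42 with it in Cy3. One of the 9 lay well off 0: snrp-40.2, a paralogue of a U5 small nuclear ribonucleoprotein, averaged 1.37 ± 0.66 and 0.83 ± 0.24 (SD over 10 probes) on these arrays. The corresponding young values were -1.03 ± 0.21 and -1.28 ± 0.53. For pfas-1, a purine synthesis enzyme, the means were -0.095 ± 0.55 and -1.12 ± 0.15 in aged adults, so the orientations differed although each rested on 10 probes. For nfs-1, a cysteine desulfurase, the means were 0.30 ± 0.31 and 0.22 ± 0.72, so the spread between probes exceeded each mean.

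The highest ratio of all belonged to C38D9.2, a coding gene on chromosome V. It stood at 5.35 with the mutant in Cy5 and at 6.68 with the mutant in Cy3, a mean of 6.01 and a 64.6-fold ratio. C50F7.5 on chromosome IV came next, with 3.95 and 4.58. The 2 genes parted in young adults, where C38D9.2 had 5.71 and 4.65 and C50F7.5 had -1.08 and -0.072. C55C3.3, also on chromosome IV, had 4.78 and 3.72 in aged adults, a 19.1-fold mean ratio. F15D4.5 on chromosome II had 2.33 and 5.61, so that its orientations differed by 3.28 units although both were high. F07B7.2 on chromosome V had 2.64 and 4.32.

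Further genes were above 2.4 on both arrays. The citron kinase homologue citk-1, of a family known for its part in cell division, had 3.99 and 2.61, and Y53G8AL.1 on chromosome III had 3.55 and 2.9997. Y59E9AR.1 gave 2.96 and 3.39 in aged adults, close to its young values of 3.39 and 3.36. On chromosome I, C48B6.9 had 3.39 and 2.80, the highest of that chromosome, and Y39G10AR.16 had 2.86 and 2.79. The claudin-like gene clc-19, of a family of membrane proteins related to tight junction components, had 2.70 and 3.04. The remaining 4 of the 15 highest called genes, W03A5.2, C55C3.6, C49C3.9 and ZK1248.4, had means of 3.05, 2.98, 2.89 and 2.80. The lowest single aged value among the 15 highest was the 2.33 of F15D4.5.

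The low side was led by cror-1, on chromosome II, at -3.28 with the mutant in Cy5 and -4.05 with it in Cy3, a mean of -3.67 and a 12.7-fold ratio. C33G8.2 on chromosome V had -2.98 and -3.45. D1086.6, which no young array measured, had -2.61 and -2.996, and C18D11.6 on chromosome III had -2.73 and -2.75. In these 4 genes the orientations agreed to within 0.77 units. They did not for C09B8.4, on the X chromosome, whose values were -1.05 and -5.38 and whose mean of -3.22 thus rested on the array with the mutant in Cy3. C40H1.8 had -1.71 and -3.85, and C35B1.4 had -1.32 and -4.15. F54F2.6 leaned the other way, with -4.19 and -1.36.

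Further low genes included ule-4, one of the genes named for expression in the uterine lumen, at -2.77 and -2.44, and B0302.2 at -2.77 and -1.97. Y46H3C.5 had -1.38 and -3.36. The long noncoding gene Y9D1A.1 had -1.57 and -3.17, and the pseudogene F20B6.7, on the X chromosome, had -2.23 and -2.14. F25D1.5 and Y6D1A.2 had means of -2.33 and -2.25. The lowest called gene of chromosome I, W09C3.7, was milder, at -1.53 and -1.71.

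**Figure D2:**
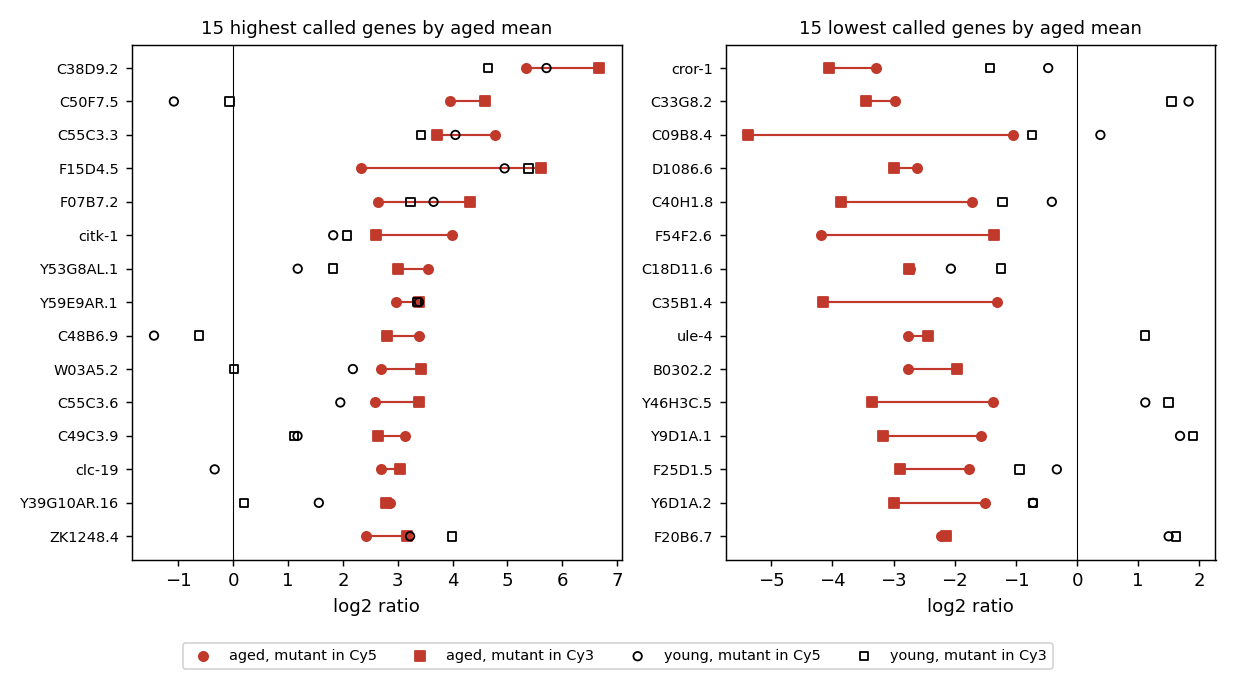
Log2 ratios of the 15 called genes with the highest and the 15 called genes with the lowest aged mean; filled red symbols joined by a line are the aged arrays, open black symbols the young arrays, circles the mutant in Cy5 and squares the mutant in Cy3. The young symbols of C38D9.2 and Y59E9AR.1 lie among or near the aged ones, while those of C50F7.5, C48B6.9, C33G8.2 and Y9D1A.1 lie on the other side of 0.

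Some called genes had a size that depended on the dye orientation. R11H6.5 on chromosome V had 4.05 with the mutant in Cy5 and 1.11 with it in Cy3. The signal peptidase subunit gene sec-11, which belongs to the machinery that trims secreted proteins, had 1.03 and 3.32, and lost its call when arrays were centred. With C09B8.4, C35B1.4, F15D4.5 and F54F2.6 these were the called genes with the 3 widest gaps in each direction, the smallest being 2.29 units for sec-11 and the widest 4.33 for C09B8.4.

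Small RNA pathway genes were thinly represented. Of 15 genes listed for the CSR-1 pathway and uridylation, 1 was measured: simr-1, a Tudor domain protein needed for small RNA amplification, with 3.36 with the mutant in Cy5 but 0.45 with it in Cy3. It did not pass on both arrays, and 1 listed gene gives no reading of the pathway in which CDE-1 acts. All 5 piRNA pathway genes with a named probe were measured and 1 was called, beside 6.75% of all genes on the high side. That gene was pid-3, on chromosome I, a subunit of the PETISCO complex that processes piRNA precursors, with 3.32 and 1.28 in aged adults and -0.27 and -0.46 in young ones. The PETISCO partner tost-1 lay at 0.13 and 0.0057, which is near 0 on both arrays. The factors pid-2, pid-4 and pid-5, which act on small RNAs downstream of piRNAs, had aged means of 0.39, 0.43 and 0.48. Only pid-4 of these had the same sign on both arrays, at 0.41 and 0.45. The median of the 5 genes was 0.43, against 0.15 over all 2965 genes. From the list of mutator and nuclear RNAi genes, hrde-2, which is needed to load the nuclear Argonaute HRDE-1, had 0.70 and 0.58 in aged adults against -0.92 and -0.64 in young adults. The P granule proteins mip-1 and mip-2 lay at -0.10 and 0.076 as means, with opposite signs on their arrays.

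Meiotic genes lay near 0. Of 6 measured genes for germline proliferation and meiosis 0 were called in either direction, and their median was -0.20. The synaptonemal complex genes syp-5 and syp-6, which join homologous chromosomes, had means of -0.46 and -0.24. Their regulators zhp-1, zhp-2 and zhp-4, RING finger proteins that act in crossover control, had 0.011, 0.20 and -0.26. No gene of the kinetochore and chromosome segregation list had a named probe.

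Measured translation initiation genes had positive means, most of them through 1 array. The guanine nucleotide exchange factor eIF2B recycles the initiation factor eIF2, and 4 of its subunit genes were measured. The delta subunit gene eif-2Bdelta had 1.498 with the mutant in Cy5 and 1.90 with it in Cy3, and was called. The alpha, beta and epsilon subunit genes had 1.70, 1.58 and 2.04 with the mutant in Cy5 but -0.25, 0.14 and -0.53 with it in Cy3, so that 1 array alone carried their means of 0.72, 0.86 and 0.76. The exon junction helicase gene eif-4A3 had 1.91 and 2.44. With eif-2D, at 2.199 and -0.74, the eif family had 6 measured genes, 2 of them called, beside 6.75% of all genes on the high side, and a median of 0.81. On the young arrays eif-2Bdelta had -0.56 and -1.36, and the family median there was -0.83.

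Other listed complexes with measured genes gave no calls. The 6 measured genes of the Integrator complex, which processes small nuclear RNAs and terminates transcription, had a median of -0.068. The largest departure was ints-4, at -0.75 and -1.21. For 6 genes of respiratory complex I the median was 0.18. For 6 spliceosome genes it was 0.082, and it turned to -0.0055 when arrays were centred. Of 24 intracellular pathogen response genes with a named probe, 4 were measured and 0 called. Within this list pals-26 had -2.80 with the mutant in Cy5 and -0.067 with it in Cy3, which is the one-sided pattern described above. The opposed regulators of the response, the repressor pals-22 and the activator pals-25, had means of -0.43 and 0.36. The proteasome list and the autophagy and lysosome list had no named probe, and 1 of 67 mitochondrial ribosome genes was measured. Over all 14 lists, 43 of 471 members were measured, in 11 of the lists. Of the 43, 2 were higher (4.65%) and 0 lower, beside 6.75% and 2.56% of all genes.

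Genes were also grouped by the stem of their names, which gave 27 families of 4 or more measured genes. Among their 198 genes 16 were higher (8.08%) and 1 lower, beside 6.75% and 2.56% of all genes. The lido family, on chromosome II as far as its called members go, had 6 of 10 genes above 1 on both arrays, beside 6.75% of all genes, and a median of 1.37, which was 1.29 after centring. That median rests on how the 2 arrays are oriented to each other. With the mutant-in-Cy3 array turned it was 0.13, below the 0.85 of the eif family and the 0.68 of the pid family. As the ratios are read here, a turned value follows the gap between orientations, so that order is one of gaps. The highest lido members were lido-15, at 2.56 with the mutant in Cy5 and 2.35 with it in Cy3, and lido-9, at 3.26 and 1.19. The called members lido-11, lido-12, lido-7 and lido-10 had means of 1.72, 1.52, 1.42 and 1.33. The lowest mean of a measured member was 0.22, and 8 of the 10 were positive on both arrays. The young median of the same 10 genes was 0.61. The family had been picked out in earlier work on these arrays, so its count is not independent evidence of its direction.

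The medians of the other families lay between -0.61 and 0.81. The cest genes, which encode carboxylesterases, marked the low end with a median of -0.61 over 10 genes, and the called count there was 0. With the mutant-in-Cy3 array turned the cest median was -0.28, and the tmem genes marked the low end at -0.57. The 14 nlp genes, which encode neuropeptide-like proteins, had a median of 0.62 and also 0 calls. Heme-responsive hrg genes had a median of 0.69 over 5. For the nspg genes, which encode nematode-specific peptides, the aged median was 0.22 over 10 genes, 2 of them called. The 7 with both young ratios had a median of 0.035 in aged adults against 1.57 in young ones. The called members were nspg-8, at 2.42 and 1.18, and nspg-5, at 1.09 and 1.05, which lost its call when arrays were centred. The 9 spig genes had an aged median of 0.29, and the 6 of them with both young ratios had 0.42 in aged adults against 1.89 in young ones. Single called members of further families were nssp-35 at 1.92 and 2.199, rbm-26, an RNA-binding protein, at 1.84 and 1.68, gldi-3 at 1.83 and 1.15, and the methyltransferase-like gene metl-9 at 1.64 and 1.103. On the young arrays metl-9 had -2.02 and -1.32.

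**Figure D3:**
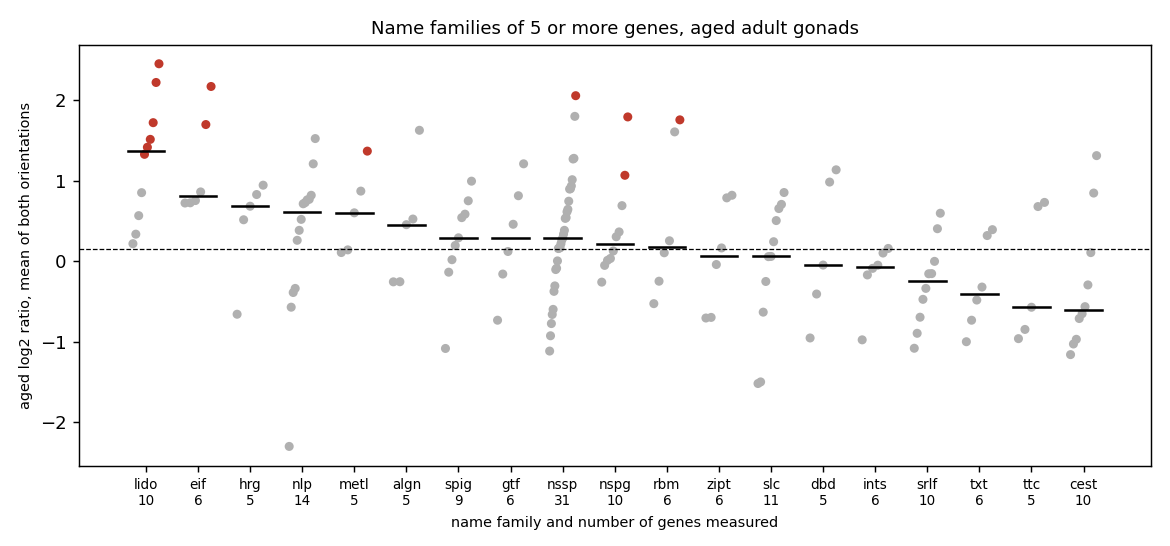
Aged log2 ratio (mean of both orientations) of each gene in the name families with 5 or more measured genes; each point is a gene, red where it is above 1 on both arrays, black bars are family medians and the dashed line is the median of all 2965 genes. The lido genes sit highest, with a median of 1.37, and the cest genes lowest, with -0.61. With the mutant-in-Cy3 array turned these medians are 0.13 and -0.28. Among the families shown, the lido genes then no longer mark the high end, while the cest genes still mark the low end.

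The called genes were spread over all chromosomes. Higher genes made up 7.31% of the measured genes of chromosome I, 7.63% of II, 7.06% of III, 7.14% of IV, 5.51% of V and 5.79% of X, beside 6.75% of all. For lower genes the shares ran from 1.58% on chromosome I to 3.58% on X. On the X chromosome, which is largely silent in the germline, 21 of 363 measured genes were higher and 13 lower, and the median was 0.15, the same as over all genes to 2 digits. The highest X-linked call was the pseudogene T08D2.3, at 3.199 and 1.797. Pseudogenes had 7 higher and 7 lower members among 113, shares of 6.19% each, and a median of -0.18 against 0.17 for coding genes. These differences were not tested.

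**Figure D4:**
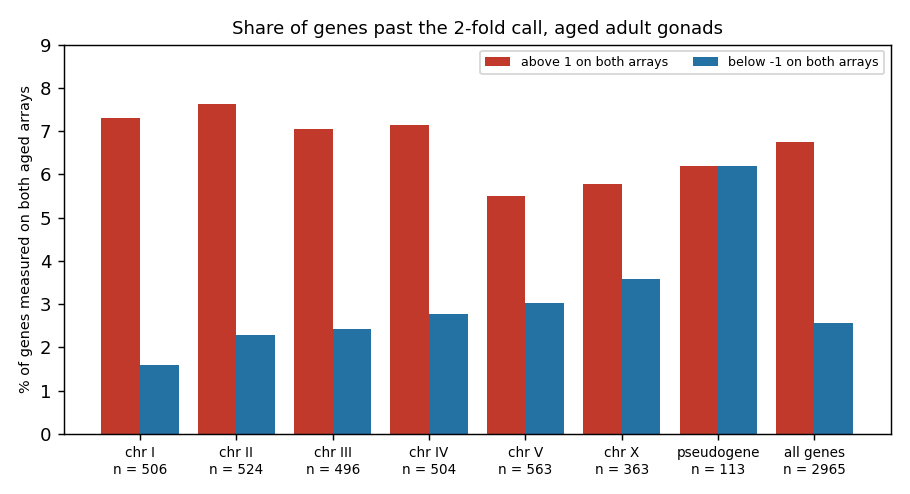
Percentage of measured genes above 1 on both aged arrays (red) and below -1 on both (blue), by chromosome, for pseudogenes and for all genes. Red bars for chromosomes I to IV stand between 7.06% and 7.63%, those for V and X at 5.51% and 5.79%, and the blue bar of pseudogenes equals the red one at 6.19%.

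Some called genes lay side by side in the genome. The annotated order of coding genes and pseudogenes held 547 adjacent pairs in which both genes were measured. In 10 pairs both genes were higher, in 2 both were lower, and in 0 was one higher and the other lower. A further 62 pairs held 1 higher gene only and 20 held 1 lower gene only. Of all measured genes, 6.75% were higher and 2.56% lower. Whether neighbours were called together more often than these shares give was not tested. These pairs were named after their values were seen. On chromosome IV, C55C3.6 (2.58 and 3.39) lay beside C55C3.3. On chromosome III, W03A5.2 (2.69 and 3.42) lay beside W03A5.1 (1.88 and 2.51), and clc-19 lay beside T24C4.5 (3.16 and 1.49). On chromosome I, T28F2.2 (1.22 and 2.27) lay beside T28F2.1 (1.98 and 2.36).

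On chromosome II, lido-9, lido-10, lido-11 and lido-12 stood in a row and gave 3 of the 10 pairs. Y41D4B.18 with Y41D4B.17, C33A12.3 with C33A12.19 and F11A5.9 with F11A5.15 made up the rest, with means of 1.15 to 1.99. F11A5.15 lost its call when arrays were centred. The low pairs were F20B6.9 (-2.04 and -2.18) with F20B6.7 on the X chromosome and D2096.10 (-1.11 and -1.60) with D2096.11 (-1.81 and -2.27) on chromosome IV. All 4 low genes were positive on both young arrays. Probe sequences were not used here, so signal shared between related neighbours, such as the lido genes, was not tested.

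A group of 743 genes measured in aged adults lacked a ratio on at least 1 young array, and 301 of them on both. Of the 743, 43 were higher and 19 lower (5.79% and 2.56%), beside 6.75% and 2.56% of all genes measured. The highest with no young ratio at all was R11A5.3 on chromosome I, at 2.72 with the mutant in Cy5 and 2.202 with it in Cy3. The genes nssp-35 and rbm-26, given above, also had no young ratio. The pseudogene Y53F4B.8, with 1 young ratio of 0.44, had 1.88 and 2.31. D1086.6, F54F2.6, C35B1.4 and B0302.2 led the low side without any young ratio, followed by C25E10.11 at -2.49 and -1.85. Absence of a young ratio shows only that the deposited value there was 0.

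Set beside young adults, the aged calls were not of one kind. Of the 200 higher genes, 58 were positive and 73 negative on both young arrays, 26 had young arrays of opposite sign and 43 lacked a young ratio. For the 76 lower genes, 17 were negative and 32 positive on both young arrays. Among the 796 measured genes that were negative on both young arrays, 9.17% were higher in aged adults, against 6.99% of the 830 that were positive on both. Lower in aged adults were 2.14% of the 796 and 3.86% of the 830, beside 2.56% of all genes. After centring, 68 of 181 higher genes were negative on both young arrays and 55 positive. Among the 15 highest called genes the order was the other way, with 11 positive on both young arrays and 2 negative, C50F7.5 and C48B6.9. Of the 15 lowest called genes, 5 were negative and 4 positive on both young arrays, and 5 lacked a young ratio. With 1 RNA sample for each genotype and stage, a difference between the stages cannot be told apart from a difference between single samples, and none was tested.

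**Figure D5:**
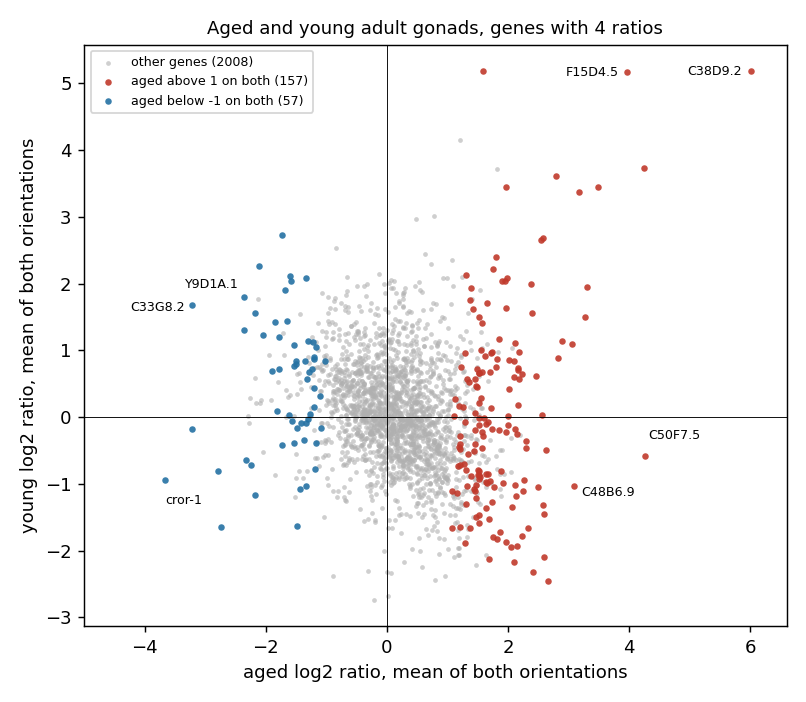
Aged log2 ratio (horizontal axis) against young log2 ratio (vertical axis), each the mean of both orientations, for the 2222 genes with 4 ratios; 157 genes above 1 on both aged arrays are red and 57 below -1 on both are blue. Red points fall both above and below 0 on the young axis, with C38D9.2 and F15D4.5 at the upper right and C50F7.5 and C48B6.9 below 0.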

How the data were processed

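Only the values of the series were used, 1 column per array. Per the submitters' processing notes, the arrays were read with Agilent Feature Extraction; its version, its dye and background corrections and the array's build are not stated in those notes or the labels. Deposited values were read as log10 ratios, that program's convention, which no header states, and multiplied by 3.32 to give log2 ratios. Exact 0 was treated as missing, and spot brightness was not used.

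Probes were named from the platform annotation and updated to WBcel235 symbols through gene identifiers: 7718 of 22562 probes had 1 gene symbol, none had several, 14844 were unnamed here, and 7691 matched the annotation. Probes of one gene were averaged on each array; 38 measured genes had more than 1. The orientations were averaged as deposited. A gene was called when both aged arrays lay beyond 1 log2 unit in one direction. No test was run, because each genotype had 1 aged RNA sample; the number of arrays limits the precision. The call rule was run on simulated data with planted changes larger than the median of the called genes. That run checked that none of them was called in the wrong direction, and no rate of false calls is given here.

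Genes named were the 15 highest and 15 lowest called by aged mean, the 6 highest and 6 lowest called without both young ratios, called members of lists and families, the 3 widest orientation gaps of each sign among called genes, and the highest and lowest called gene of each chromosome. Neighbouring pairs, repeated probes and uncalled list members were added with values known. Protein identity among the leading genes, part of the plan, was not computed, because no protein sequences were used here. Members and lists were chosen with earlier results of these data known. Values were computed in Python 3.11.15 with pandas 2.3.3.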

Additional observations from a re-analysis of the deposited data

Results flagged for a closer look

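In 11 of the 54 genes of the naming rule, both aged arrays lay on one side of 0 and both young arrays on the other. This pattern was common among all 2222 genes with 4 ratios. It held for 425 of the 796 genes negative on both young arrays and for 304 of the 830 positive on both. The counts in this section therefore mark no trait of the genes named, and the difference between stages was not tested. Aged minus young log2 ratios were positive for C50F7.5 (4.85), C48B6.9 (4.13), R11H6.5 (3.90), the pseudogene T08D2.3 (3.55), metl-9 (3.04), pid-3 (2.66) and eif-2Bdelta (2.66). They were negative for C33G8.2 (-4.90), the noncoding gene Y9D1A.1 (-4.16), the pseudogene F20B6.7 (-3.74) and Y46H3C.5 (-3.68). In C50F7.5 one young value was only -0.072, so its side of 0 is uncertain.

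The same pattern held for 20 of 61 other genes, namely listed genes, neighbouring pairs and genes with 10 probes. This count too has to be read beside the share over all genes given above. Among called neighbours, aged minus young was positive for T24C4.5 (3.99) and C33A12.3 (2.49) and negative for F20B6.9 (-4.37), D2096.11 (-3.27) and D2096.10 (-2.19). None of the other 15 was called. Small RNA genes among them were simr-1 (2.39), hrde-2 (1.42) and pid-4 (0.50). Positive differences were also found for eif-2Bbeta (2.91), snrp-40.2 (2.26), sftb-1 (1.94), syf-3 (1.02), nfs-1 (1.0008), ints-11 (0.84) and C30H6.8 (0.45). Negative ones were found for C29F7.3 (-1.25), ndua-2 (-1.06), pfas-1 (-0.997), sftb-6 (-0.99) and syp-5 (-0.61). These differences were not tested either. Some of these genes had values near 0, so their side of 0 is uncertain too. Among them were pid-4 (young -0.12 and -0.019), C30H6.8 (young -0.090 and -0.099) and ndua-2 (aged -0.14 and -0.044).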

How the results depend on the processing

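The counts of 200 higher and 76 lower genes stayed within 1.5 times under centring, centring with scaling, zeros kept, agreeing orientations and genes with 4 ratios. A 0 cannot pass the call, so keeping zeros is no check of these counts. Agreeing orientations and genes with 4 ratios only take subsets of the same calls. They became 22 and 7 at 2 log2 units, 448 and 223 by the mean alone, 716 and 247 over every probe, and 3 and 0 were the deposited scale log2. A single array gave 346 to 818 higher and 263 to 397 lower genes. The 105 calls with opposed young arrays became 8 at 2 units, 472 over every probe, and 214 to 393 on 1 array. The orientation correlation of 0.33 was 0.24 with zeros kept, and 0.82 among orientations within 1 unit, which that filter produces. With the swapped array turned, as is right if both arrays were deposited as the program wrote them, 43 genes were higher and 33 lower. Called genes have one sign on both arrays, so their turned sign shows by construction only which array gave the larger ratio in size. A gene's value under turning is the mean of the mutant-in-Cy5 ratio and the negative of the other. It turned for 30 named genes, to negative values for C38D9.2 (-0.66), C50F7.5 (-0.32), F15D4.5 (-1.64), F07B7.2 (-0.84), Y59E9AR.1 (-0.21), W03A5.2 (-0.37), C55C3.6 (-0.40), clc-19 (-0.17), ZK1248.4 (-0.37), W03A5.1 (-0.32), eif-4A3 (-0.26), T28F2.1 (-0.19), sec-11 (-1.15), Y53F4B.8 (-0.21), nssp-35 (-0.14), lido-11 (-0.42), eif-2Bdelta (-0.20) and lido-7 (-0.24), and to positive values for W09C3.7 (0.0897), Y6D1A.2 (0.75), F25D1.5 (0.57), Y9D1A.1 (0.80), Y46H3C.5 (0.99), C35B1.4 (1.42), C18D11.6 (0.010), C40H1.8 (1.07), D1086.6 (0.19), C09B8.4 (2.17), C33G8.2 (0.24) and cror-1 (0.39). Of the 54 genes of the naming rule, 20 more moved by over the SD of both orientations. Centring moved 5 by that much, and centring with scaling 4; none turned under either. Keeping zeros cannot change these genes, and leaving out an array moves a mean by less than that SD by construction, so neither is a check; the shift was up to 2.17 log2 units, for C09B8.4. Turning the array also changed the sign of list medians, to 0.15 for meiosis, 0.19 for Integrator and -0.025 for complex I. No paired analysis was possible because both aged arrays carry the same cDNAs and count as 1 replicate. Spot brightness was not used, so dim ratios could not be set apart.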
